A study of Mus musculus with 8 samples.

Results

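The genes described here are *Trp53*, which encodes the transcription factor p53, and 8 genes whose products act back on p53 or on its inhibitor MDM2, namely *Mdm2*, *Mdm4*, *Ppm1d*, *Ccng1*, *Rchy1*, *Usp7*, *Zmat3* and *Trp53inp1*. They were listed by name, with earlier results of these data known, and make up 9 of the 55385 genes in the count table. All 9 passed the filter on low counts, which left 17445 genes. The cells were mouse embryonic stem cells (mESCs) of the R1 line, labelled wild type, grown on coated plates in N2B27 medium with 2i and Lif. Every group was infected with lentivirus for 2 days and then selected with puromycin for 3 days, so that each library is a selected population of cells and not a clone. The groups were shRNA1 (3 libraries) and shRNA2 (3 libraries), hairpins against different stretches of the *Eftud2* transcript, and nt-shRNA (2 libraries), a non-targeting hairpin that serves as the control for both. *Eftud2* encodes a GTPase of the spliceosome, and the question put to these genes is how far the transcripts of the p53 loop moved with each *Eftud2* knockdown (KD).

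p53 is made continuously and destroyed continuously. MDM2, a ubiquitin ligase, marks p53 for degradation, and *Mdm2* is itself a p53 target gene, so that active p53 raises the amount of its own inhibitor. MDM4 is a relative of MDM2 that pairs with it and masks the activation domain of p53. The other genes act around this pair. The phosphatase encoded by *Ppm1d* (also called Wip1) removes stress-dependent phosphates from p53 and from the kinases that place them, *Ccng1* encodes cyclin G1, which brings a phosphatase to MDM2, *Rchy1* encodes the ubiquitin ligase Pirh2, and USP7 removes ubiquitin from both MDM2 and p53. *Zmat3* encodes an RNA-binding protein that regulates splicing, and *Trp53inp1* a stress protein that promotes p53 phosphorylation and autophagy. Pluripotent stem cells carry abundant p53 while they go on dividing.

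Because several of these genes are known p53 targets and moved together, the start sites were searched for the letters of p53 binding elements. RefSeq windows of 300 bases (GRCm38.p6, 250 before to 50 after a start) were at hand for 7 of the 9 genes, in 9 windows, and not for *Zmat3* and *Trp53inp1*. A p53 half-site, the ten-letter consensus that reads alike on both strands, was found without mismatch at *Trp53* (first base at position -75 from the start), *Mdm2* (-186), *Ppm1d* (-132), *Ccng1* (-185) and 1 of the *Rchy1* windows (-90). The same half-site was found in 8.36% of all 32851 windows of this length. At *Ccng1* it was the right arm of a full element, a pair of abutting half-sites, with 1 mismatch. A full element with up to 2 mismatches was present in 0.326% of all windows. The windows of *Mdm4* and *Usp7* held none of these letters. *Ppm1d* also held TGACGTCA (-85, in 1.79% of all windows) and *Trp53* CACGTG (at 11, in 7.15%), both searched on both strands. The *Rchy1* match lies wholly in exon bases of *Rchy1* and *Thap6*. The other p53 matches and the TGACGTCA of *Ppm1d* are given here 5′ to 3′ on the strand of the gene, with the matching bases in capitals. For *Mdm2* the whole 250 bases before the start are given, since *Mdm2* had the largest fold change with shRNA2 after *Ppm1d*. The well-known p53 elements of *Mdm2* lie in its first intron, which the window does not cover.
Trp53, chr11:69580274-69580303, plus strand: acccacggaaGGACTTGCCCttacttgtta
Ppm1d, half-site, chr11:85311112-85311141, plus strand: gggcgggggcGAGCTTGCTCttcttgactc
Ppm1d, TGACGTCA, chr11:85311158-85311187, plus strand: agcgagccgagTGACGTCAtcaggagaaag
Ccng1, full element, chr11:40755457-40755486, minus strand: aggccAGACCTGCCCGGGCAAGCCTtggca
Mdm2, chr10:117710759-117711008, minus strand: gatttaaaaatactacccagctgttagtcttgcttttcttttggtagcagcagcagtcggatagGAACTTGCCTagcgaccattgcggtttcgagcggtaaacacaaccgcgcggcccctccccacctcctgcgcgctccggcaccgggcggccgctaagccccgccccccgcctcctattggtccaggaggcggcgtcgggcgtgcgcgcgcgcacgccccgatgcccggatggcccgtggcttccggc
These are letter matches and not measured binding, and the absence of a match says only that the letters are not in the window.

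Depth was between 19569525 and 29871048 counts per library. The targeted transcript, *Eftud2*, was at 262 and 256 CPM (TMM-normalized counts, given as if every library held the same total) in nt-shRNA, at 232, 229 and 225 in shRNA1 and at 198, 202 and 235 in shRNA2. Both hairpins were below nt-shRNA in every library. The log2 fold change was -0.18 ± 0.068 (SE) with shRNA1 (adjusted p = 0.051) and -0.29 ± 0.068 with shRNA2 (adjusted p = 0.0012). In these counts, only shRNA2 therefore passed the threshold of 0.05. By qPCR the study reported a larger fall of the transcript with each hairpin, and by western blot less EFTUD2 protein with either. Directly between the hairpins, shRNA2 against shRNA1, the value was -0.11 ± 0.061, which did not pass (adjusted p = 0.16), and their libraries overlapped. The 9 naive pluripotency markers were all present, with a summed level of 4487 to 4555 CPM in nt-shRNA, 5001 to 5175 in shRNA1 and 5986 to 6174 in shRNA2. Of these markers 5 rose and 1 fell with shRNA1, and 7 rose and 1 fell with shRNA2, where 13.8% and 17.1% of all genes rose and fell with shRNA1, and 27.2% and 28.7% with shRNA2. The summed level of fibroblast feeder markers was low but higher in every KD library, at 7.87 to 8.25 CPM in nt-shRNA, 9.74 to 11.2 in shRNA1 and 8.51 to 9.96 in shRNA2. Of the 6, *Col3a1* and *Dcn* were under the filter, and of the 4 tested 1 passed, *Col1a2*, at 8 to 34 counts in a library. *Col1a2* rose with shRNA1 (log2 fold change 1.27, adjusted p = 0.010) and shRNA2 (1.66, adjusted p = 4.3e-04). With shRNA2 *Pdgfra* went the other way, below nt-shRNA in every library (-0.32, adjusted p = 0.16). *Col1a1* and *Thy1* had 0.43 and 0.23 there (adjusted p = 0.069 and 0.36). Differentiated lineage markers summed to between 88.1 and 104 CPM in nt-shRNA, 88.0 and 91.0 in shRNA1, and 70.3 and 77.7 in shRNA2. The part of these shifts in the results below was not tested. In such bulk RNA, fewer cells that express a gene and less RNA of it per cell cannot be told apart.

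*Trp53* lies on chromosome 11 of GRCm38 from 69580359 to 69591873, on the plus strand. Its level was 169 and 188 CPM in nt-shRNA, 189, 198 and 189 in shRNA1, and 261, 312 and 250 in shRNA2. All shRNA2 libraries were above all others, whereas the lowest shRNA1 library exceeded the higher nt-shRNA library by less than 1 CPM. The transcript rose 1.54-fold with shRNA2 (log2 fold change 0.62 ± 0.080, SE; adjusted p = 2.6e-06, edgeR) and was 1.43-fold higher with shRNA2 than with shRNA1 (0.51 ± 0.071, adjusted p = 2.8e-05). With shRNA1 the value was 0.11 ± 0.080 (95% confidence interval -0.06 to 0.27), which did not pass (adjusted p = 0.33). It was 0.03 without nt-shRNA replicate 1 (adjusted p = 0.87) and 0.19 without nt-shRNA replicate 2 (adjusted p = 0.21).

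*Mdm2*, on chromosome 10 from 117688875 to 117710758 on the minus strand, showed steps at both hairpins. Its level was 204 and 175 CPM in nt-shRNA, 253, 248 and 234 in shRNA1, and 457, 502 and 363 in shRNA2, and no group overlapped another. *Mdm2* rose 2.33-fold with shRNA2 (log2 fold change 1.22 ± 0.10, adjusted p = 9.0e-09) and 1.29-fold with shRNA1 (0.37 ± 0.098, adjusted p = 0.0072). Between the hairpins the difference was 1.80-fold (0.85 ± 0.087, adjusted p = 1.7e-06). The call with shRNA1 was lost when nt-shRNA replicate 2, the lowest library, was left out (0.26, adjusted p = 0.13) and with DESeq2 (0.38, adjusted p = 0.052).

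The gene count of *Mdm2* pools its isoforms. In the annotation (GENCODE M21) the start codon of the full-length protein lies in an exon of 85 bases (chromosome 10, 117709700 to 117709784, exon 3 of the transcript Mdm2-201), out of 5083 bases of merged exons. A transcript with or without that exon therefore adds nearly the same number of fragments, and the rise in the count does not say which form rose.

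*Mdm4*, on chromosome 1 from 132959484 to 133030561, was the 1 gene that passed in no comparison. It was at 543 and 505 CPM in nt-shRNA, 492, 478 and 461 in shRNA1, and 530, 501 and 517 in shRNA2. The shRNA1 libraries were all below nt-shRNA, and the shRNA2 libraries overlapped it. The log2 fold change was -0.14 with shRNA1 (95% confidence interval -0.26 to -0.01, adjusted p = 0.093), -0.02 with shRNA2 (-0.15 to 0.10, adjusted p = 0.75), and 0.11 between the hairpins (-0.00065 to 0.23, adjusted p = 0.11). With shRNA1 the value was -0.08 without nt-shRNA replicate 1 (adjusted p = 0.52) and -0.02 with library size alone (adjusted p = 0.80), and over 15 other settings its adjusted p ran from 0.086 to 0.80. With shRNA2 the sign of this value near 0 turned in 4 of 15 other settings, library size alone among them.

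**Figure D1:**
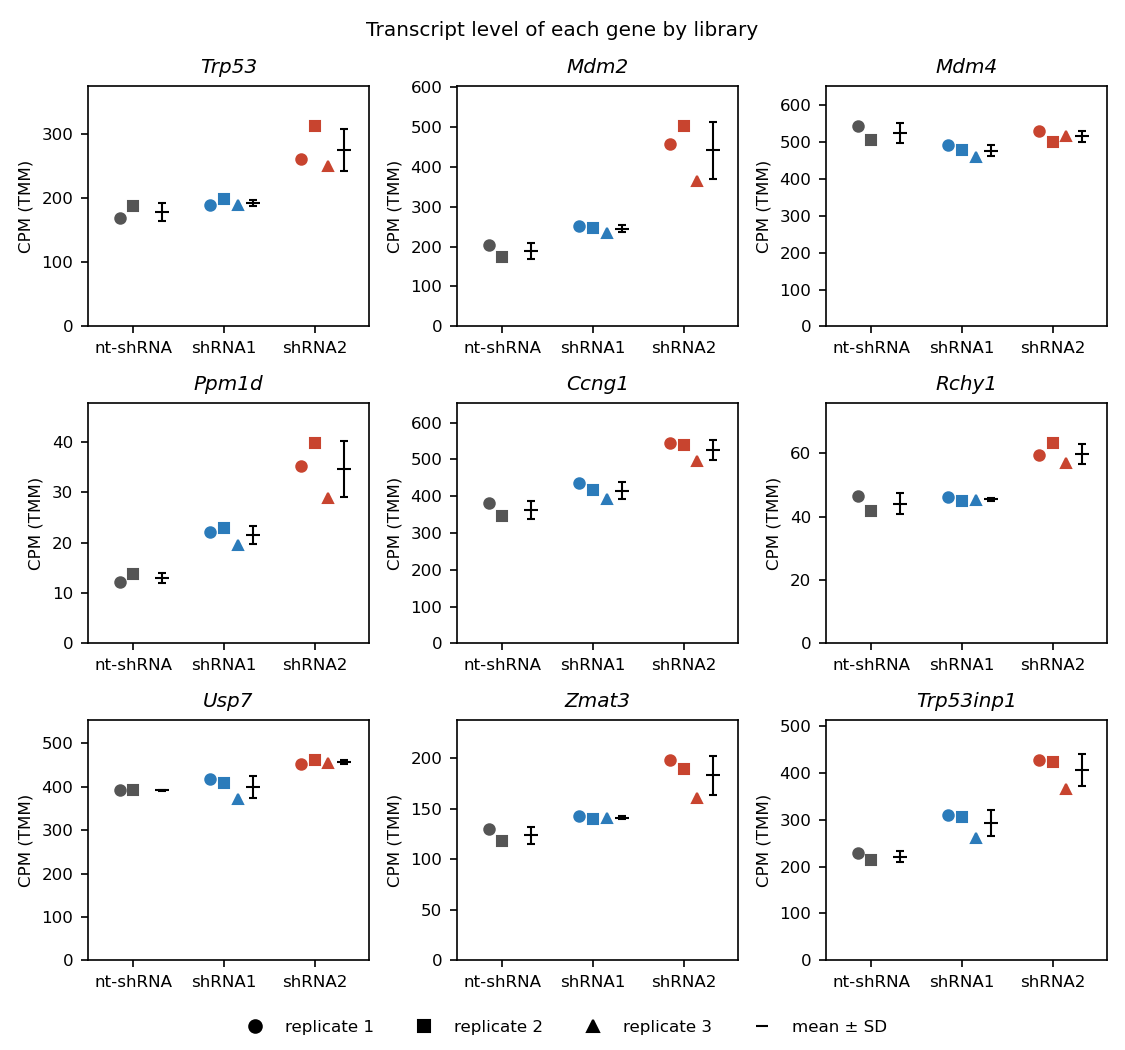
TMM-normalized level (CPM) of each of the 9 genes in every library, by group, with the mean ± SD of the group beside the points; each axis starts at 0. The shRNA2 libraries lie above both other groups for each gene except *Mdm4*, and replicate 3 is the lowest shRNA2 library for 7 of the 9 genes.

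Since *Mdm2* rose and *Mdm4* did not pass, the ratio of their counts was computed within each library, where library scaling cancels. Like the counts, this ratio pools the isoforms of each gene and does not give the amount of full-length protein. Per kb of exon, *Mdm2* was at 1.09 and 1.01 times *Mdm4* in nt-shRNA, 1.49, 1.51 and 1.48 times in shRNA1, and 2.51, 2.92 and 2.05 times in shRNA2. The length is that of all annotated exons merged, 5083 bases for *Mdm2* and 14798 for *Mdm4*. It sets the height of the ratio, but not its change between groups on the log2 scale. The 3 groups did not overlap, and the shRNA1 libraries lay closer to each other (SD 0.0139, n = 3) than those of shRNA2 (SD 0.436, n = 3). The mean log2 ratio was higher than in nt-shRNA by 0.51 with shRNA1 and by 1.23 with shRNA2, and by 0.72 in shRNA2 over shRNA1.

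*Mdm2* relative to *Trp53* moved less. The ratio was 0.961 and 0.739 in nt-shRNA, 1.06, 0.993 and 0.985 in shRNA1, and 1.39, 1.28 and 1.16 in shRNA2, again without overlap. The mean log2 ratio exceeded nt-shRNA by 0.27 with shRNA1 and 0.59 with shRNA2, and shRNA2 exceeded shRNA1 by 0.33. The nt-shRNA libraries differed by more from each other than the shRNA1 libraries did, and the shRNA1 difference was 0.08 without nt-shRNA replicate 2 and 0.46 without replicate 1. For these 6 ratio comparisons the two-sided exact permutation test gave p = 0.2 against nt-shRNA and p = 0.1 between the hairpins, the smallest it can give with 3 against 2 and 3 against 3 libraries (0.2 each after Benjamini-Hochberg adjustment), so the ratios are a description.

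**Figure D2:**
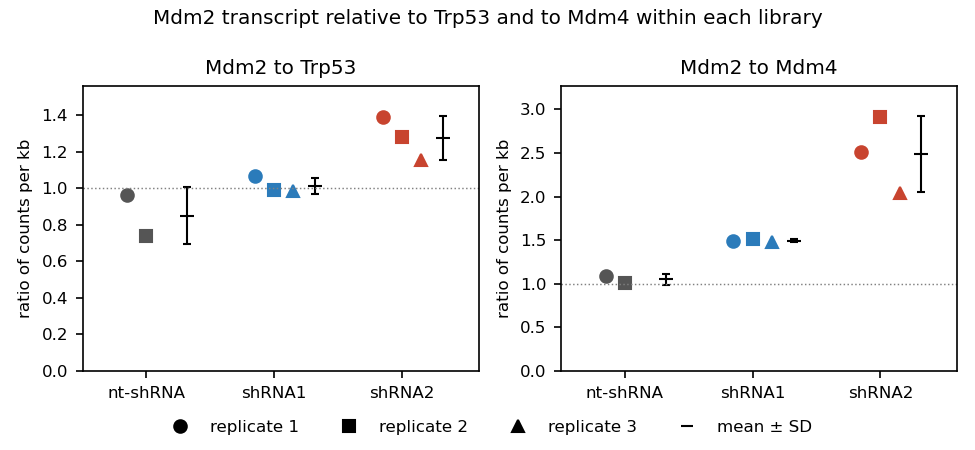
Ratio of *Mdm2* counts per kb to *Trp53* counts per kb (left) and to *Mdm4* counts per kb (right) in every library, with the group mean ± SD. The dotted line marks equal counts per kb of merged exons. *Mdm2* to *Mdm4* goes from 1.01 and 1.09 in nt-shRNA to between 2.05 and 2.92 in shRNA2.

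*Ppm1d* had the largest fold change against nt-shRNA of the 9 genes and the lowest level. On chromosome 11 from 85311244 to 85347066, it was counted between 326 and 881 times per library. It was at 12.2 and 13.7 CPM in nt-shRNA, 22.2, 23.0 and 19.6 in shRNA1, and 35.2, 39.7 and 28.8 in shRNA2, and the groups stood apart. *Ppm1d* rose 2.67-fold with shRNA2 (log2 fold change 1.41 ± 0.12, adjusted p = 1.6e-08) and 1.66-fold with shRNA1 (0.73 ± 0.12, adjusted p = 1.8e-04). shRNA2 exceeded shRNA1 by 0.68 ± 0.10 (adjusted p = 6.4e-05). These calls passed in each of the 15 other settings.

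*Ccng1*, on chromosome 11 from 40748552 to 40755311, was the most abundant of the genes per kb. Its level was 380 and 345 CPM in nt-shRNA, 436, 417 and 392 in shRNA1, and 544, 539 and 494 in shRNA2, without overlap between the groups. The rise was 1.45-fold with shRNA2 (0.54 ± 0.068, adjusted p = 2.1e-06) and 1.14-fold with shRNA1 (0.19 ± 0.068, adjusted p = 0.036). The step from shRNA1 to shRNA2 was 0.34 ± 0.060 (adjusted p = 2.7e-04). With shRNA1 the call was lost without nt-shRNA replicate 2 (0.12, adjusted p = 0.34), without shRNA1 replicate 1 (0.16, adjusted p = 0.13) and without shRNA1 replicate 2 (0.19, adjusted p = 0.089).

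*Rchy1*, on chromosome 5 from 91948904 to 91963068, was at 46.4 and 41.9 CPM in nt-shRNA, 46.1, 45.1 and 45.3 in shRNA1, and 59.4, 63.3 and 57.0 in shRNA2. Here shRNA1 fell within the range of nt-shRNA (log2 fold change 0.04, 95% confidence interval -0.11 to 0.20, adjusted p = 0.69), and shRNA2 lay above both. The rise with shRNA2 was 1.36-fold (0.44 ± 0.073, adjusted p = 5.0e-05), and 0.40 ± 0.066 over shRNA1 (adjusted p = 1.6e-04). *Rchy1* shares 680 of its 3773 exon bases (18.0%) with *Thap6* on the opposite strand, and the counting used no strand and dropped shared fragments, so its level is uncertain to that extent. *Thap6*, at 4.31 to 9.47 CPM, also rose with shRNA2 (0.83 ± 0.16, adjusted p = 2.2e-04) and between the hairpins (0.50 ± 0.14, adjusted p = 0.010). The other 8 genes share no exon base with another gene in this annotation, and the pseudogenes *Trp53-ps* and *Mdm4-ps* had at most 41 and 3 counts in a library.

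*Usp7*, on chromosome 16 from 8689595 to 8792308, had the smallest change with shRNA2 among those that passed. It was at 391 and 392 CPM in nt-shRNA, 418, 408 and 371 in shRNA1, and 453, 461 and 454 in shRNA2. The shRNA1 libraries lay on both sides of nt-shRNA (log2 fold change 0.03, 95% confidence interval -0.10 to 0.15, adjusted p = 0.78). With shRNA2 it rose 1.16-fold (0.22 ± 0.062, adjusted p = 0.0054), and 0.19 ± 0.055 over shRNA1 (adjusted p = 0.011).

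*Zmat3*, on chromosome 3 from 32334792 to 32366014, was at 129 and 118 CPM in nt-shRNA, 143, 140 and 141 in shRNA1, and 198, 190 and 161 in shRNA2. The 3 groups did not overlap. *Zmat3* rose 1.48-fold with shRNA2 (0.57 ± 0.076, adjusted p = 4.4e-06) and 1.30-fold from shRNA1 to shRNA2 (0.38 ± 0.067, adjusted p = 3.3e-04). Its value with shRNA1, 0.19 ± 0.076, lay just outside the threshold (adjusted p = 0.065) and passed in 7 of 15 other settings, among them the replicate block (0.24, adjusted p = 0.013) and those without shRNA2 replicate 2 (adjusted p = 0.049) and without shRNA2 replicate 3 (adjusted p = 0.022). It did not pass without any 1 of the other 6 libraries, and was 0.12 without nt-shRNA replicate 2 (adjusted p = 0.42).

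*Trp53inp1*, on chromosome 4 from 11156431 to 11174379, was at 229 and 213 CPM in nt-shRNA, 311, 307 and 260 in shRNA1, and 427, 423 and 366 in shRNA2, with no overlap. It rose 1.83-fold with shRNA2 (0.87 ± 0.082, adjusted p = 4.7e-08) and 1.32-fold with shRNA1 (0.40 ± 0.081, adjusted p = 9.4e-04), and by 0.47 ± 0.071 between the hairpins (adjusted p = 6.8e-05). With *Ppm1d* it kept its call with shRNA1 in each of the 15 other settings.

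With shRNA1, therefore, 4 of the 9 genes rose (*Mdm2*, *Ppm1d*, *Ccng1*, *Trp53inp1*) and 0 fell, at a median log2 fold change of 0.19. Among all genes tested 13.8% rose and 17.1% fell, at a median of -0.01. The count was 2 without nt-shRNA replicate 2 and 6 with library size alone, where *Trp53* and *Zmat3* were added. For 6 of the 9 genes every shRNA1 library was above both nt-shRNA libraries, and for 1, *Mdm4*, every one was below, against 26.6% and 30.2% of all genes. No fall of the 9 was called by edgeR or DESeq2, and *Mdm4* had an unadjusted p of 0.035, with an adjusted p of 0.093.

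With shRNA2, 8 of the 9 genes rose, all but *Mdm4*, and 0 fell. Their median was 0.57, against 0.00 for all genes, of which 27.2% rose and 28.7% fell. The same 8 genes lay above nt-shRNA in every library, as did 35.4% of all genes. Directly between the hairpins, 8 of 9 were higher with shRNA2 (median 0.40, all genes 0.00), against 16.9% of all genes higher and 18.7% lower. The shRNA2 libraries were above the shRNA1 libraries without overlap for each of the 9, *Mdm4* included, against 23.6% of all genes. With shRNA2 and between the hairpins, these counts were 8 in each of 15 other settings, and 0 genes fell with either test tool or at an unadjusted p under 0.05. Both KDs share the nt-shRNA libraries, so their values are given side by side and not as independent of each other.

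**Figure D3:**
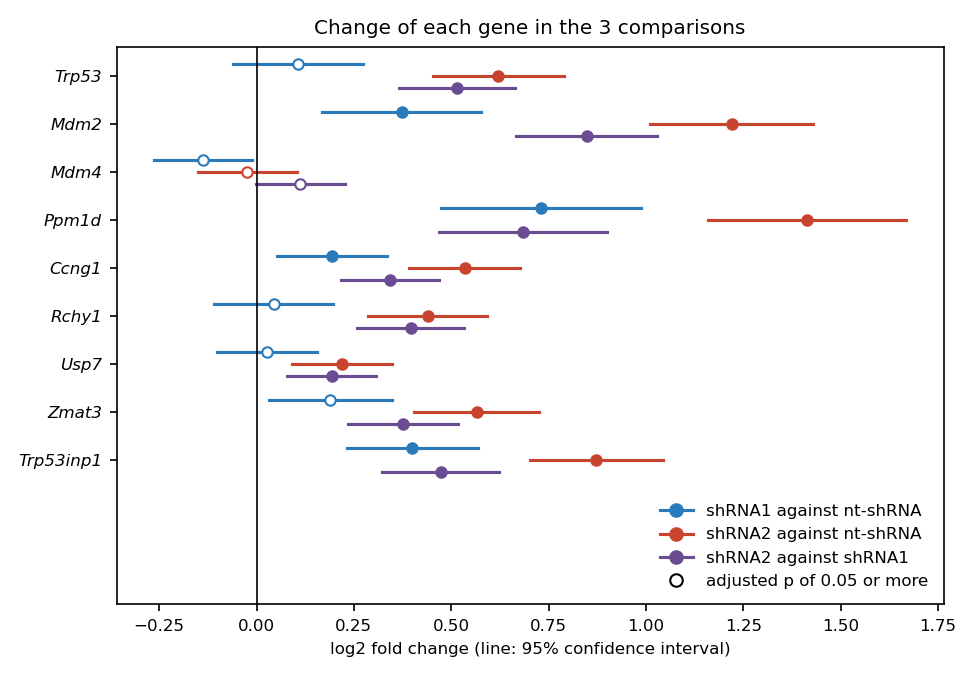
log2 fold change (point) and 95% confidence interval (line) of each gene with shRNA1 against nt-shRNA, shRNA2 against nt-shRNA and shRNA2 against shRNA1; open points had an adjusted p of 0.05 or more. *Ppm1d* (1.41) and *Mdm2* (1.22) lie farthest to the right with shRNA2, and *Mdm4* has open points in all 3 comparisons.

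The coefficient of variation between replicates was larger in shRNA2 than in shRNA1 for 5 of the 9 genes, as for *Mdm2* (16.1% against 3.85%) and *Trp53* (12.0% against 2.79%), and smaller for the other 4, as for *Usp7* (0.966% against 6.13%) and *Trp53inp1* (8.41% against 9.62%). Replicate 3 was the lowest shRNA2 library for 7 of the 9 genes, as shRNA1 replicate 3 was in its group for 6 of 9. *Eftud2* was highest in the former and lowest in the latter within their groups. Without shRNA2 replicate 3 the value of *Mdm2* with shRNA2 was 1.34, the highest of all settings. *Mdm2* passed in each of them.

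Compared per kb of merged exons, the order of the genes also differed between groups. That length need not be the length of the expressed transcripts, and the order within a group depends on it. In nt-shRNA *Ccng1* was highest (103 ± 7.02 CPM per kb, SD, n = 2), followed by *Usp7* (50.4 ± 0.120), *Trp53* (44.1 ± 3.39), *Mdm2* (37.2 ± 4.05), *Mdm4* (35.4 ± 1.83) and *Trp53inp1* (34.2 ± 1.76), with *Rchy1* (11.7 ± 0.849), *Zmat3* (10.8 ± 0.720) and *Ppm1d* (4.08 ± 0.328) well below. *Mdm2*, *Mdm4* and *Trp53inp1* overlapped in sequence there, as did *Rchy1* and *Zmat3*. In shRNA1 *Usp7*, *Mdm2*, *Trp53* and *Trp53inp1* overlapped with their neighbours, between 40.1 and 53.8 CPM per kb, and *Mdm4* (32.2 ± 1.06, n = 3) lay under all of them. In shRNA2 *Mdm2* was second (86.7 ± 13.9 CPM per kb, n = 3) after *Ccng1* (150 ± 7.77), ahead of *Trp53* (67.9 ± 8.17), *Trp53inp1* (62.6 ± 5.26) and *Usp7* (58.7 ± 0.567), although the ranges of *Mdm2* and *Trp53* overlapped. *Mdm4* stayed at 34.9 ± 0.988 and *Ppm1d* was last at 10.9 ± 1.73.

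**Figure D4:**
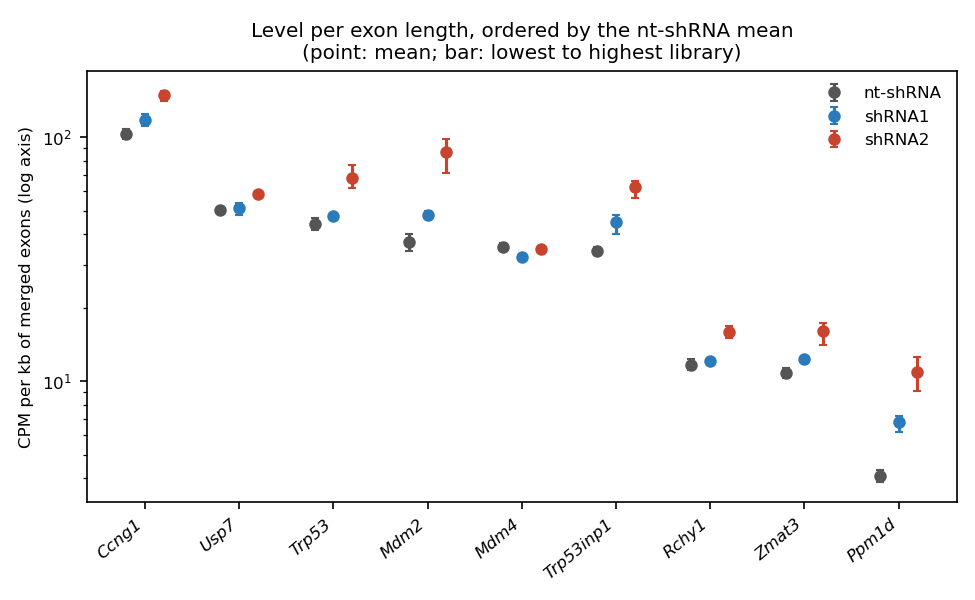
Level per kb of merged exons (CPM per kb, log axis) of the 9 genes, ordered by their nt-shRNA mean; points are group means and bars run from the lowest to the highest library. *Mdm2* passes from 37.2 in nt-shRNA to 86.7 in shRNA2, above *Trp53* and *Usp7*, while *Mdm4* has means between 32.2 and 35.4 in all groups.

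The genes whose profile over the 8 libraries was most like that of *Trp53* (smallest root mean square difference of centred log2 CPM) were *Sall4* (0.031), *Arid1a* (0.032), *Tns3* (0.034), *Rabl2* (0.041) and *Ubtf* (0.044). The median over 17436 genes was 0.36. For *Mdm2* they were *Gm24494* (0.065), *Tma16* (0.082), *Mras* (0.087), *Dancr* (0.090) and *Prpf3* (0.092), with a median of 0.56 over all genes. None of the 10 is in the p53 lists below. On the log2 scale *Sall4*, for example, differed from nt-shRNA by 0.11 in shRNA1 and 0.56 in shRNA2, and *Mras* by 0.42 and 1.30.

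Other genes of the p53 network were described from fixed lists. Of 14 other ubiquitin enzymes that act on p53 or MDM2, 3 rose and 0 fell with shRNA1, and 8 rose and 2 fell with shRNA2 (median 0.18). *Trim28*, a corepressor that works with MDM2, had 0.53 with shRNA2 (adjusted p = 8.7e-07), the deubiquitinase gene *Usp42* 0.52 (9.2e-06) and the ligase gene *Siah1b* 0.48 (2.3e-04). Of 12 kinases and acetylation enzymes, 4 rose and 2 fell with shRNA1, and 6 rose and 3 fell with shRNA2 (median 0.15). The acetyltransferase gene *Crebbp* had 0.93 (3.2e-08) and the deacetylase gene *Sirt1* 0.65 (4.8e-07) with shRNA2, whereas *Csnk1a1*, a kinase gene, fell by 0.32 (7.6e-05).

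Most of the MDM2-binding inhibitors fell. Of 5 genes, 4 fell and 0 rose with shRNA1 (median -0.39), and 4 fell and 1 rose with shRNA2 (median -0.42). *Cdkn2a* encodes the MDM2 inhibitor ARF and, from another first exon, the cell cycle inhibitor INK4a, and its count holds both transcripts. It was at 59.2 and 58.3 CPM in nt-shRNA, 41.3, 44.1 and 49.2 in shRNA1, and 35.6, 37.4 and 39.2 in shRNA2, which gives -0.39 with shRNA1 (adjusted p = 9.3e-04) and -0.65 with shRNA2 (adjusted p = 1.1e-06) on the log2 scale. All its KD libraries were below nt-shRNA. The ribosomal protein genes *Rpl5* (-0.48, adjusted p = 2.8e-06) and *Rpl23* (-0.42, adjusted p = 8.8e-06) fell with shRNA2 as well. Ribosomal protein genes have many processed pseudogenes, and fragments that aligned to several places were left out of the counts, so these levels are uncertain. *Npm1*, named here after its values were seen, was the 1 gene of the list that rose with shRNA2 (0.32, adjusted p = 7.2e-04).

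Of 6 cofactors that bind p53, 0 rose and 2 fell with shRNA1, and 2 rose and 2 fell with shRNA2 (median 0.06). *Ppp1r13l*, which encodes the p53 inhibitor iASPP, had -0.70 (adjusted p = 2.6e-06), *Banp* -0.28 (0.0087) and *Brd7* 0.21 (0.0053) with shRNA2. Of the 6 paralogues of the 9 genes, 5 passed the filter, all but *Trp63*, and with shRNA2 2 rose and 2 fell. *Trp53inp2*, the relative of *Trp53inp1*, did not pass with shRNA1 (-0.02, adjusted p = 0.89) or with shRNA2 (-0.17, adjusted p = 0.12). *Ccng2*, the relative of *Ccng1*, was at 29.1 and 38.1 CPM in nt-shRNA, 21.2, 21.5 and 22.0 in shRNA1, and 14.4, 12.5 and 16.8 in shRNA2, a fall by 1.21 on the log2 scale with shRNA2 (adjusted p = 7.4e-08) where *Ccng1* rose by 0.54. *Trp73*, the p53 relative, was low, at 3.37 and 3.24 CPM in nt-shRNA, 4.83, 3.75 and 4.35 in shRNA1, and 13.5, 19.3 and 9.18 in shRNA2 (log2 fold change 2.08 ± 0.23, adjusted p = 3.9e-07). *Ppm1b*, a relative of *Ppm1d*, had -0.19 with shRNA2 (adjusted p = 0.014). *Ppm1a*, also a relative of *Ppm1d*, rose by 0.17 with shRNA1 (adjusted p = 0.036) and by 0.14 with shRNA2 (adjusted p = 0.049).

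Of 22 p53 targets outside the 9 genes, 6 rose and 3 fell with shRNA1 at a median of 0.00, and 13 rose and 6 fell with shRNA2 at a median of 0.33. *Plk2*, a polo-like kinase gene, was at 43.1 and 31.9 CPM in nt-shRNA, 66.8, 73.8 and 61.5 in shRNA1, and 151, 179 and 106 in shRNA2 (log2 fold change 1.95 ± 0.16, adjusted p = 7.9e-09). *Ddit4l*, an inhibitor of mTOR signalling, had 1.28 (8.5e-09) and the antiproliferative gene *Btg2* 0.86 (3.3e-08) with shRNA2. The 6 that fell with shRNA2, named here after their values were seen, were *Gdf15* (-0.82), *Ddb2* (-0.73), *Rrm2b* (-0.61), *Pmaip1* (-0.37), *Bbc3* (-0.34) and *Xpc* (-0.29). *Cdkn1a*, the p21 gene and the best known p53 target, named here after its values were seen, had -0.07 with shRNA1 (adjusted p = 0.53) and -0.05 with shRNA2 (95% confidence interval -0.20 to 0.10, adjusted p = 0.58). The lists were chosen with results of these data known, and their counts are read against the share of all genes given above.

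**Figure D5:**
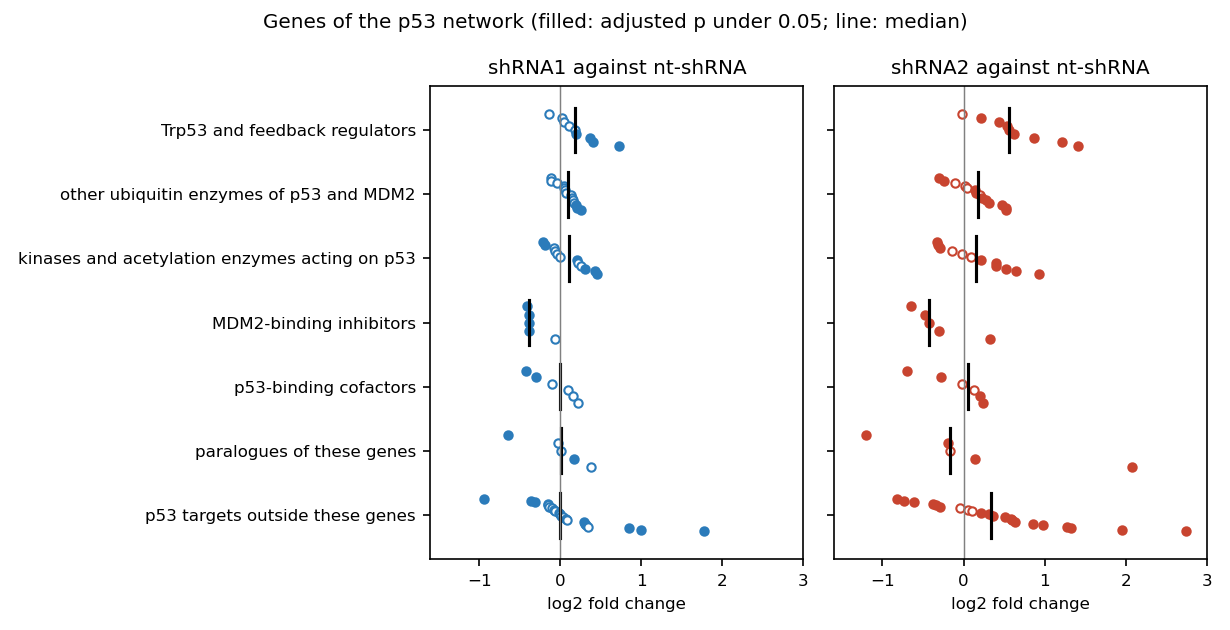
log2 fold change of each tested gene of the p53 network lists with shRNA1 (left) and shRNA2 (right) against nt-shRNA; filled points had an adjusted p under 0.05 and the vertical line is the list median. With shRNA2 the median of *Trp53* and its feedback regulators is 0.57, and that of the MDM2-binding inhibitors is -0.42.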

How the data were processed

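Poly(A)-selected RNA of 8 libraries was measured. The authors aligned paired reads to mm10 (GRCm38) with STAR and deposited raw counts per gene from featureCounts 1.6.2 (GENCODE M24), without normalization, strand or multiply aligned fragments; STAR's version is not given in the sources used here. Gene-level counts cannot separate isoforms. Symbols and exons were taken from GENCODE M21 by gene identifier (55144 matched), and columns were matched to samples by title.

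In R 4.3.3, the filter was filterByExpr with a minimum count of 10. TMM factors were 0.935 to 1.036. Genes were tested in edgeR 4.0.16 with glmQLFit and glmQLFTest over all 8 libraries, with 1 coefficient per group and no block, and Benjamini-Hochberg adjustment over all 17445 genes (threshold 0.05). Standard errors were taken from the F statistic. The code was tested on simulated data. CPM are TMM-normalized, and per-kb values use the deposited gene length. Ratios and permutation tests used Python 3.11.15 and scipy 1.17.1. Nothing states that replicates were separate cultures beyond the label of biological replicate, so p-values measure the spread between these libraries. Chi-square statistics per gene of 3.12 to 12.0 within groups showed no library deposited repeatedly. A count of 3 equals 0.105 to 0.148 CPM; such floors cover counting error only.

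The 9 genes and the lists were chosen with earlier results of these data known. Named genes are the 9, *Eftud2*, from each p53 network list the 3 genes ranked first by adjusted p with shRNA2, and the 5 nearest profiles of *Trp53* and *Mdm2*. Genes that overlap, or are paralogues or pseudogenes of, the 9 are named too, and exceptions are marked. Among the marker lists, only the feeder markers are named. Alternatives were DESeq2 1.42.0 (the tool of the authors), edgeR with DESeq2 size factors or with library size alone, an unfiltered table, a minimum of 10 counts in all libraries, a fit to the compared groups alone, a replicate block, and each library left out; for ratios, group mean levels. Splicing was not analysed here.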

Additional observations from a re-analysis of the deposited data

How the results depend on the processing

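Of 405 values of single genes under 15 other settings, 386 kept their direction and their side of the threshold, 5 lost a call, 8 gained one and 6 changed sign. All gains and losses were with shRNA1. The sign changes were values near 0 that passed in no setting. *Mdm4* with shRNA2 was 0.00104 with at least 10 counts in every library, 0.0662 with library size alone, 0.0265 without nt-shRNA replicate 1 and 0.000851 without shRNA2 replicate 2, with a range of -0.0792 to 0.0265 over the libraries left out. *Rchy1* with shRNA1 was -0.0299 without nt-shRNA replicate 2 (range -0.0299 to 0.120), and *Usp7* with shRNA1 -0.00697 without shRNA1 replicate 1 (range -0.00697 to 0.0767). With each library left out in turn, between 2 and 5 of the 9 genes rose with shRNA1, and 8 rose with shRNA2 and 8 between the hairpins. *Trp53* with shRNA1 passed with library size alone (0.22, adjusted p = 0.041) and in none of the 14 others, where it ran from 0.03 to 0.19. That scaling moved the median of all genes to 0.11 with shRNA1 and 0.09 with shRNA2, and the higher share of calls from 44.7% to 70.5% and from 48.7% to 58.9%; its changes are to be read relative to those shifts. Without nt-shRNA replicate 1 or 2, the calls over all genes with shRNA1 went from 2407 higher and 2981 lower to 1248 and 1700, or 1531 and 2077. Whether the replicate numbers pair the libraries is not settled. The study set same-numbered replicates against each other in its qPCR, whereas in these counts no same-numbered pair deviated together beyond a correlation of 0.1 (7 same-numbered pairs, correlation of deviations -0.026 to 0.074, 4 of 8 libraries nearest their own number). With the number as a replicate block, 5 genes rose with shRNA1, *Zmat3* being added (0.24, adjusted p = 0.013), 8 with shRNA2 and 8 between the hairpins, and calls over all genes with shRNA1 were 2694 higher and 3324 lower. The ratio differences kept their direction in all settings. Each of the 9 genes had at least 326 counts in every library, and the 2 nt-shRNA libraries limit the precision of each comparison with nt-shRNA.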

Other observations

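Some further genes named after p53, picked after their values were seen, are given as values only. *Trp53i13*, a p53-inducible gene, was at a mean of 24.4 CPM in nt-shRNA, between 14.8 and 20.6 in shRNA1, and between 11.3 and 13.9 in shRNA2, and fell with shRNA1 by 0.53 and with shRNA2 by 0.96 on the log2 scale (adjusted p = 0.0034 and 3.7e-06, edgeR). *Trp53i11* fell by 0.33 and 0.37 (adjusted p = 0.0098 and 0.0018). *Trp53rka* and *Trp53rkb*, which encode copies of a kinase of p53 and may therefore lose fragments that align to both, rose with shRNA2 by 0.60 and 1.15 (adjusted p = 1.5e-04 and 4.1e-06) and had 0.12 and 0.36 with shRNA1 (adjusted p = 0.44 and 0.094). The noncoding RNA *Trp53cor1* (lincRNA-p21), whose gene lies next to *Cdkn1a*, was at 0.262 and 0.592 CPM in nt-shRNA, 0.642 to 0.749 in shRNA1 and 1.07 to 1.40 in shRNA2 (log2 fold change 1.54 ± 0.34 with shRNA2, adjusted p = 7.8e-04), while *Cdkn1a* itself did not pass. *Trp53cor1* is at or under 1.40 CPM in every library, and the counting used no strand.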
